A study of Sus scrofa with 48 samples.

Results

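NF-kappaB is a family of transcription factors that drives inflammatory and immune gene expression in leukocytes. Its subunits bind DNA as pairs, and in resting cells the IkappaB proteins hold these pairs in the cytoplasm. Signals from cytokine and pathogen receptors activate the IKK kinase complex, which marks IkappaB for degradation and frees the subunits, and several IkappaB genes are themselves targets of NF-kappaB. The genes described here were the subunits *NFKB1* (p105/p50), *NFKB2* (p100/p52), *REL*, *RELA* (p65) and *RELB*, the inhibitors *NFKBIA* (IkappaB alpha), *NFKBIE* (IkappaB epsilon) and *NFKBIZ* (IkappaB zeta, a nuclear IkappaB protein), *TNFAIP3* (A20, a ubiquitin-editing brake on the pathway) and *IKBKB* (the kinase IKK beta). They were found by the gene name printed for each array spot in the scanner files, and a spot was used if the authors had retained it in their normalized table. Of the 10 genes, 7 had a retained spot, out of 10946 named genes with one. The 10 names matched 21 spots, of which 19 were among the 37113 retained spots. *REL* and *TNFAIP3* had 0 spots by name and were not analysed here. The single *RELB* spot was not retained.

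The samples were whole blood of 48 castrated male French Large White pigs, aged 132 days, with 1 single-colour array of 60-base probes per animal. The pigs came from lines that had been divergently selected for residual feed intake (RFI), the part of feed intake that growth and maintenance do not predict, so that low RFI pigs are the more feed-efficient. Within each line, pigs ate either the LF diet, low in fat and fiber, or the HF diet, high in both, and the question was whether line and diet change the blood transcriptome. The 4 groups were low RFI LF, low RFI HF, high RFI LF and high RFI HF, with 12 pigs in each group and thus 24 pigs per line. All of them were of 1 breed and 1 age, none was an unselected control, and each replicate was a separate pig. Values are log2 intensities relative to the median of the retained spots of the same array, so that 0 is a spot of median brightness, and the value of a gene is the mean of its retained spots. Probes differ in how brightly they bind, so levels were compared between pigs and not between probes.

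The 48 arrays lay on 6 slides of 8, with 2 arrays of each group on every slide, and the slides were scanned on 3 days. Retained spots had a median intensity 5.91 to 16 times that of the local background, and 0 readings of non-control spots were saturated. All 19 retained spots of these genes were well above background on all 48 arrays. The tissue label was checked against marker lists of blood cells: 8 of 9 red cell genes, 8 of 10 neutrophil genes, 6 of 7 monocyte genes, 9 of 9 T cell genes, 6 of 7 B cell genes, 4 of 6 NK cell genes and 3 of 6 platelet genes had a retained spot. Of all 14606 genes named on the array, 10946 had one, so that this check says only that the markers were measured. In a bulk blood sample, fewer cells of a type and less RNA per cell cannot be told apart, and blood cell counts were not analysed here.

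The *NFKBIE* probe is shown because it gave the only line call among these genes, with the first 30 bases of this only probe by name. The brightest of the 5 *NFKBIA* probes, which did not pass the test, is shown in full beside it, both 5′ to 3′ as listed in the scanner files.

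NFKBIE O9827: aagagccagtctggaaggaagagcttctgg
NFKBIA A_72_P165846: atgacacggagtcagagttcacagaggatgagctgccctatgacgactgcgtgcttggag

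A pair of the *NFKB1* probes is shown because they overlap and read nearly the same stretch of the transcript, with capitals for the 54 bases that they share.

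NFKB1 A_72_P278054: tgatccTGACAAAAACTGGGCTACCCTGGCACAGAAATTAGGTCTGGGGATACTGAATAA
NFKB1 A_72_P146316: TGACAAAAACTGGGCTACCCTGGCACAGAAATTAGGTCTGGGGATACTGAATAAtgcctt

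The 4 *RELA* probes are shown because their values fell into opposed pairs across the pigs. Capitals mark a run of at least 4 C, which is in the first pair of probes and not in the second, and for A_72_P269269 the first 30 of 60 bases are printed.

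RELA A_72_P269269: gtgctgtcacatCCCCCtgtgcctcttcct
RELA A_72_P541003: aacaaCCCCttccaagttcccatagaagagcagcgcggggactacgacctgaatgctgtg
RELA O9322: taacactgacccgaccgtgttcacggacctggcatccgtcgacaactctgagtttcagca
RELA A_72_P089326: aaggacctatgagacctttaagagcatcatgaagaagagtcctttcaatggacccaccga

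*NFKBIE* was underexpressed in the low RFI line relative to the high RFI line, and it was the only 1 of the 7 genes to pass the test for line. IkappaB epsilon is an inhibitor that retains NF-kappaB pairs in the cytoplasm. In low RFI LF pigs the lowest, median and highest values of *NFKBIE* were -0.76, -0.52 and -0.08, and in low RFI HF pigs they were -1.07, -0.68 and -0.01. In high RFI LF pigs they were -0.74, -0.30 and 0.22, and in high RFI HF pigs -0.69, -0.35 and 0.30. Both low RFI groups thus lay lower than both high RFI groups but overlapped with them: 21 of 24 low RFI pigs were below the high RFI median, while 19 low RFI pigs were within the range of the high RFI pigs. The mean was -0.57 ± 0.25 (SD, n = 24) in low RFI pigs and -0.29 ± 0.29 (SD, n = 24) in high RFI pigs. The line difference was -0.28 on the log2 scale (SE 0.08), which is a fold change of 0.826, and limma's moderated test gave an unadjusted p of 0.00087 and an adjusted p of 0.033 over all 10946 genes.

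At an adjusted p under 0.05, 1 of the 7 genes and 1 of the 19 spots passed for line, where the test called 3.29% of all genes and 2.77% of all spots. With so few members this is a statement on *NFKBIE* and not on the family. The median line difference of the 7 genes was -0.0045 on the log2 scale, with 4 genes below 0 and 3 above it, compared with a median of 0.03 over all genes. Without a correction for multiple testing, *NFKBIE* and *NFKBIA* were the 2 of 7 genes with p under 0.05, against 13.1% of all genes. Of the 19 spots, 3 were lower in low RFI pigs at that threshold and 1 was higher, against 6.07% of all spots that were lower and 12% in either direction.

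The *NFKBIE* call was close to the threshold. Leaving out 1 pig at a time kept the line difference between -0.30 and -0.25, and the adjusted p by limma stayed under 0.05 in 40 of the 48 cases. It was 0.056 without low RFI HF replicate 5, 0.051 without low RFI LF replicate 2, 0.053 without low RFI LF replicate 6 and 0.058 without high RFI HF replicate 2. It was 0.053 without high RFI HF replicate 8, 0.051 without high RFI LF replicate 2, 0.056 without high RFI LF replicate 6 and 0.0502 without high RFI LF replicate 9. Another retained spot of the array carries the same sequence under a different name, and it correlated with O9827 over the 48 pigs at r = 0.90. That spot alone gave a line difference of -0.21 (SE 0.08) with an adjusted p of 0.192, and the mean of both spots, an alternative chosen after seeing the data, gave -0.24 (SE 0.08) with an adjusted p of 0.070.

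Within the diets, the *NFKBIE* line difference was -0.25 in LF pigs (unadjusted p = 0.026, adjusted p = 0.50 by limma) and -0.30 in HF pigs (unadjusted p = 0.0091, adjusted p = 0.26). The line contrast within LF pigs called 0.32% of all genes and the one within HF pigs 0.904%, and 0 of the 7 genes passed in either. The interaction for *NFKBIE* was -0.05 (unadjusted p = 0.77). Within the 6 slides, each with 4 low RFI and 4 high RFI pigs, the line difference was -0.27, -0.23, -0.47, 0.19, -0.46 and -0.41, which is lower in low RFI pigs on 5 of 6 slides. Of the 4 group contrasts across both factors or within 1 line, low RFI HF against high RFI LF was the widest for *NFKBIE*, at -0.36 (adjusted p = 0.15, with 0.521% of all genes called).

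*NFKBIA*, which encodes the inhibitor that is resynthesized as NF-kappaB is activated, had the next largest line difference but did not pass the test. Its lowest, median and highest values were 3.54, 3.98 and 4.68 in low RFI LF pigs and 3.49, 3.80 and 4.43 in low RFI HF pigs. They were 3.54, 4.23 and 4.94 in high RFI LF pigs and 3.55, 4.16 and 4.69 in high RFI HF pigs. The ranges overlapped almost fully, although 17 of 24 low RFI pigs were below the high RFI median. The line difference was -0.20 (SE 0.10, unadjusted p = 0.043, adjusted p = 0.35 by limma), with means of 3.97 ± 0.32 and 4.17 ± 0.35 (SD, n = 24 each). Its 5 spots moved together, at r from 0.90 to 0.98 over the pigs, and gave line differences from -0.23 to -0.17 with adjusted p from 0.23 to 0.59. Among them, 3 spots carry 1 and the same sequence, so that they are not separate evidence. The within-slide differences ran from -0.67 to 0.29 and were below 0 on 5 of 6 slides.

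*NFKBIZ*, whose protein acts in the nucleus on a part of the NF-kappaB targets, had a line difference of -0.11 (SE 0.07, adjusted p = 0.63 by limma). Its values lay between 0.78 and 1.79 in low RFI pigs and between 0.78 and 1.76 in high RFI pigs, and 12 of 24 low RFI pigs were below the high RFI median. The 3 IkappaB genes thus all had a lower mean in low RFI pigs, and 1 of them passed the test.

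**Figure D1:**
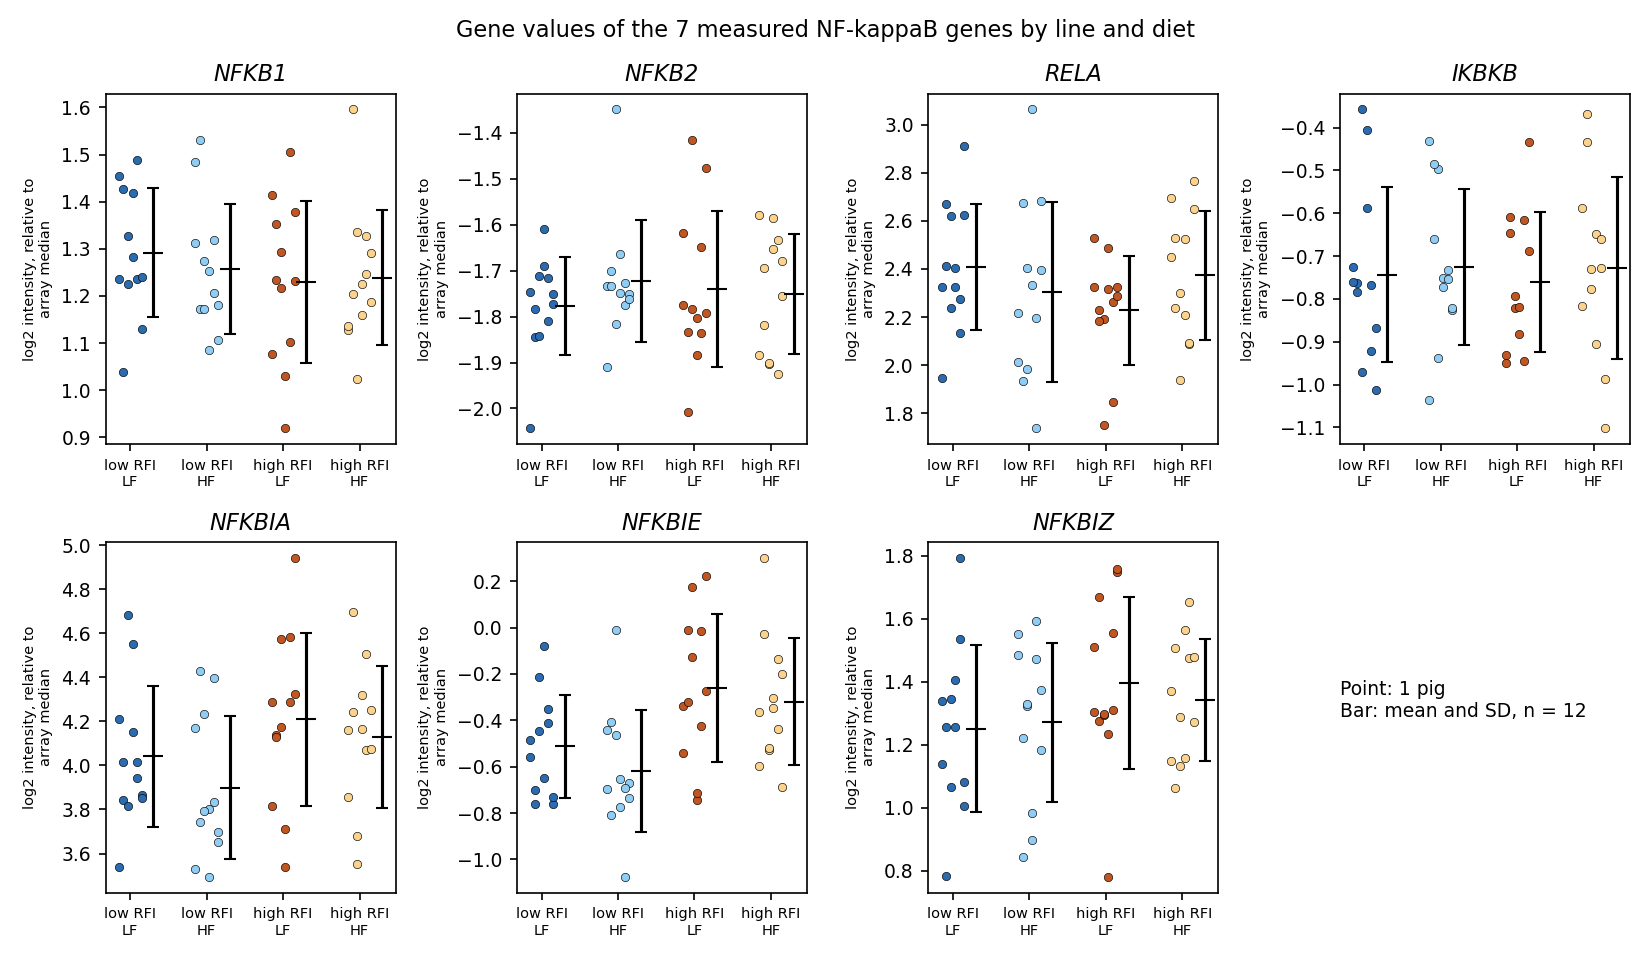
Gene values of the 7 measured NF-kappaB genes in each pig, as log2 intensity relative to the array median, by line and diet; points are pigs and bars are the mean and SD of 12 pigs. For NFKBIE the group means are -0.51 and -0.62 in low RFI pigs and -0.26 and -0.32 in high RFI pigs, and for all 7 genes the groups overlap.

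No subunit passed the test for line. *NFKB1*, the precursor of p50, ranged from 0.92 to 1.60 over all pigs, and its line difference was 0.04 (SE 0.04, adjusted p = 0.85 by limma). Its 3 spots did not read alike. Spot O12055 had medians of 0.87 (LF) and 0.92 (HF) in low RFI pigs and of 0.72 (LF) and 0.67 (HF) in high RFI pigs, and its line difference was 0.16 (SE 0.06, unadjusted p = 0.013, adjusted p = 0.20). Only 4 of 24 low RFI pigs were below the high RFI median at that spot. Both overlapping *NFKB1* probes printed above had a difference of -0.02. A retained spot listed under an accession of *NFKB1*, not part of the gene value, ranged from 4.41 to 5.15. It had a line difference of -0.01 (SE 0.05, adjusted p = 0.98 by limma).

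*NFKB2*, the precursor of p52 in the non-canonical pathway, was measured by 1 spot of that name, with values from -2.04 to -1.35. Its line difference was -0.0045 (SE 0.04, adjusted p = 0.98 by limma). The medians of its groups lay between -1.79 and -1.72. A brighter retained spot under a locus name of *NFKB2*, not part of the gene value, ranged from 1.48 to 2.65. It correlated with the named spot at r = 0.48, with a line difference of -0.03 (SE 0.09, adjusted p = 0.97 by limma). For *IKBKB*, which encodes the kinase that phosphorylates IkappaB, the 4 spots averaged to a line difference of 0.01 (SE 0.06, adjusted p = 0.97). They ranged from -0.07 at O3564 to 0.12 at A_72_P232747. At O3564 high RFI HF replicate 7 stood apart at -0.44, and without it the line difference of that spot was -0.012. At A_72_P232747, 19 of 24 low RFI pigs were above the high RFI median (unadjusted p = 0.055, adjusted p = 0.44). O3564 did not follow the other *IKBKB* spots over the pigs, at r from 0.04 to 0.14, while A_72_P232747 and A_72_P377408 correlated at r = 0.63. A retained spot under another name overlaps A_72_P377408 in sequence and correlated with it at r = 0.94. Its line difference was 0.09 (SE 0.07, adjusted p = 0.76 by limma).

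**Figure D2:**
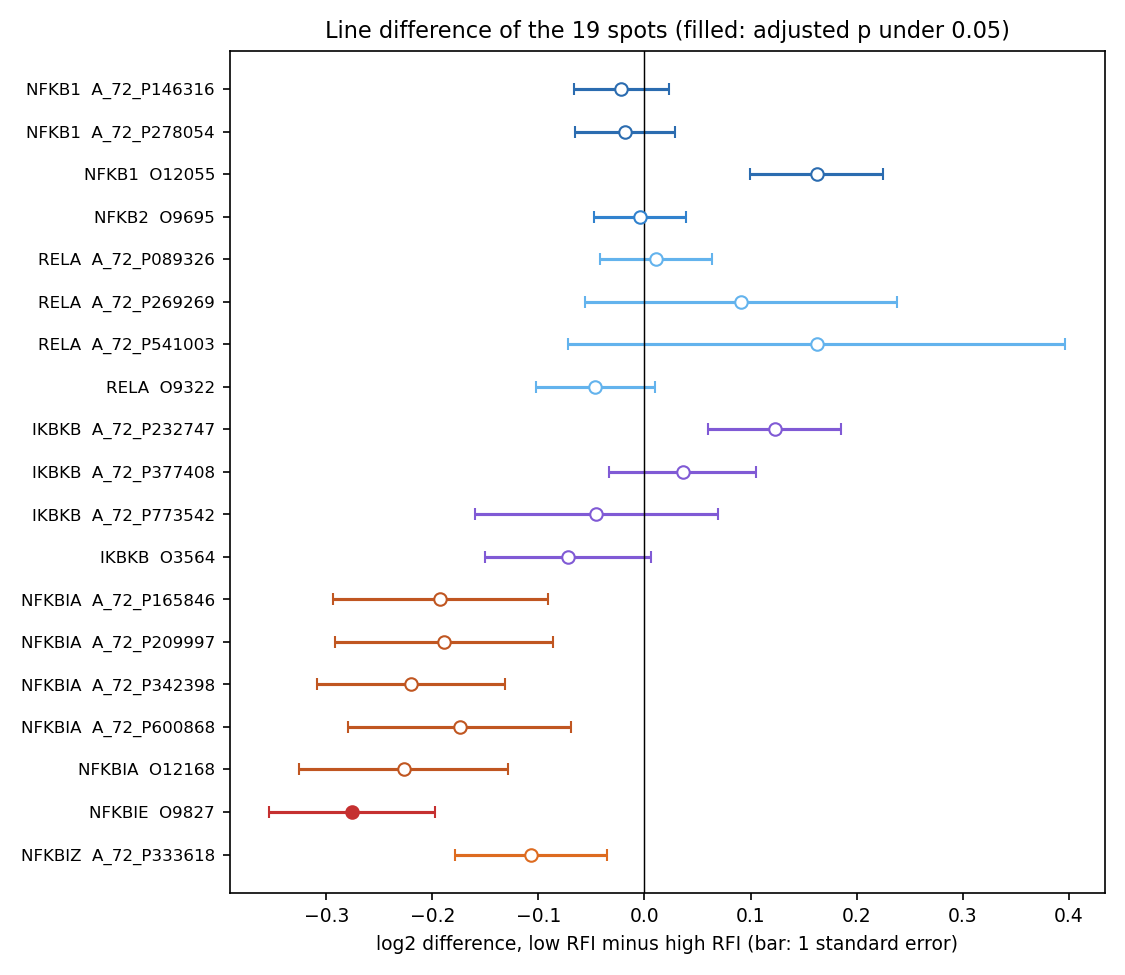
Line difference (low RFI minus high RFI, log2) of each of the 19 retained spots, with bars of 1 standard error; a filled point marks an adjusted p under 0.05. The NFKBIE spot at -0.28 is the only filled point, the 5 NFKBIA spots lie between -0.23 and -0.17, and the widest error, 0.23, belongs to RELA spot A_72_P541003.

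For diet, none of these genes passed the test. At an adjusted p under 0.05, limma called 0 of the 7 genes and 0 of the 19 spots, with a background of 0% for genes and for spots, and analysis of variance without moderation also called 0. At an unadjusted p under 0.05 the count was again 0 of 7 genes and 0 of 19 spots, where 1.94% of all genes and 1.64% of all spots passed, and the lowest p of any of the 19 spots was 0.178. The largest diet difference (HF minus LF) was -0.11 for *NFKBIA* (SE 0.10), followed by -0.08 for *NFKBIE* (SE 0.08). The other 5 genes had diet differences between -0.02 and 0.03.

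The interaction of line and diet gave 0 calls among the 7 genes and the 19 spots, with a background of 0% after adjustment. At an unadjusted p under 0.05 there were also 0, where 2.33% of all genes and 2.28% of all spots passed. The widest interaction was that of *RELA*, -0.25 as the mean of 4 spots (SE 0.16, unadjusted p = 0.13), and -0.11 for O9322 and A_72_P089326 alone (SE 0.10), a choice made after seeing the data. The lowest p of a spot was 0.056, at the *IKBKB* spot O3564, where the interaction was -0.31, and without high RFI HF replicate 7 it was -0.19 (p = 0.095).

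*RELA*, the subunit that carries the main transactivation domain of the canonical pair, could not be read as 1 quantity. The mean of its 4 spots had a line difference of 0.05 (SE 0.08, adjusted p = 0.91 by limma), yet the spots formed opposed pairs over the pigs. Spot A_72_P269269 ranged from 7.20 to 9.23, and spot A_72_P541003 ranged from -0.89 to 3.05, a 15.3-fold range of intensity. Spots O9322 and A_72_P089326 varied less, from 0.53 to 1.28 and from -0.99 to -0.09. The highest values of A_72_P541003 were 3.05 in a low RFI HF pig and 2.57 in a low RFI LF pig, and the group medians were 0.51 (LF) and 0.31 (HF) in low RFI pigs and 0.27 (LF) and 0.78 (HF) in high RFI pigs. The ranges of all 4 groups overlapped, and the line difference at this spot was 0.16 (SE 0.23, adjusted p = 0.94), or 0.05 without low RFI HF replicate 4. The mean of O9322 and A_72_P089326 alone, chosen after seeing the data, had a line difference of -0.018 and a diet difference of -0.0551, against 0.02 for diet with all 4 spots.

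With the group means removed, A_72_P269269 and A_72_P541003 correlated at r = 0.88 (rho = 0.93) and O9322 and A_72_P089326 at r = 0.64 (rho = 0.62). The 4 pairs across these sets were negative, with r from -0.57 to -0.55 and rho from -0.59 to -0.54. All 6 correlations passed a permutation test within groups over the 48 pigs, with adjusted p of at most 0.00026 over the 31 spot pairs computed. Without the 2 pigs farthest from the median of the first spot, the positive values were 0.88 and 0.59 and the negative ones ran from -0.59 to -0.54.

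**Figure D3:**
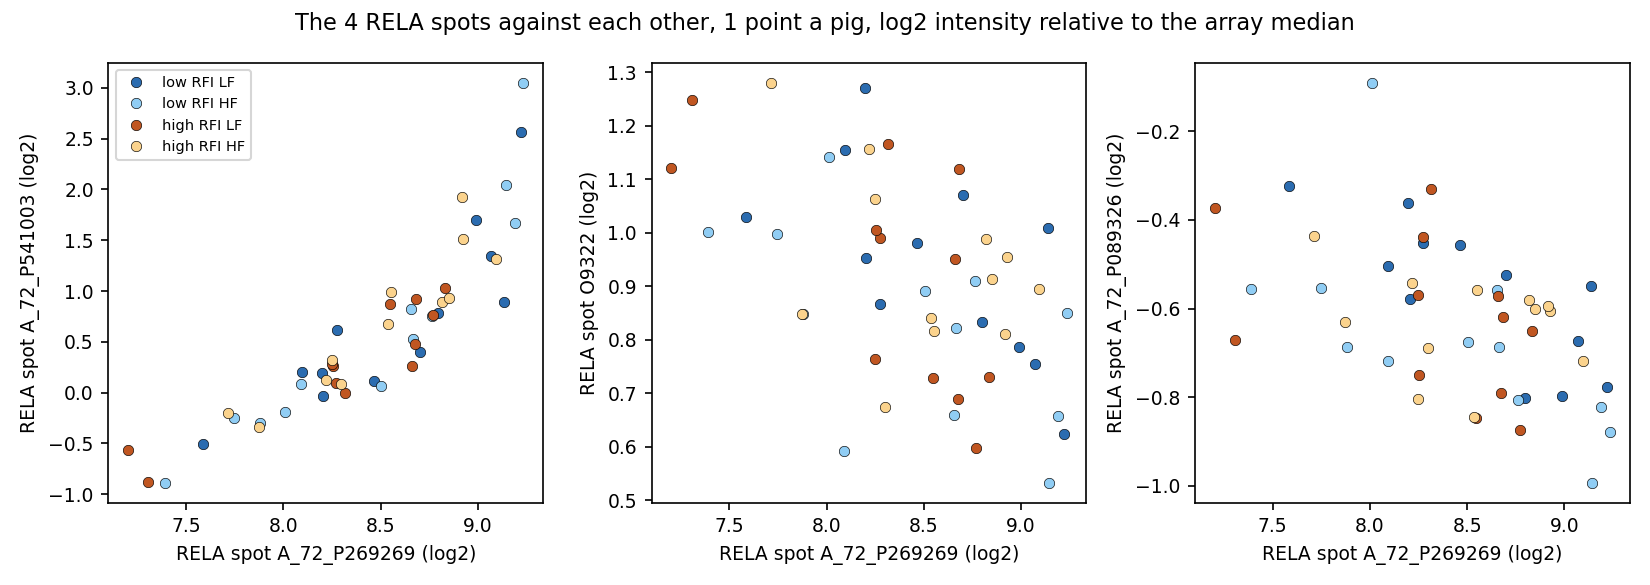
Values of 3 RELA spots (vertical axes) against RELA spot A_72_P269269 (horizontal axis) in each of the 48 pigs, all as log2 intensity relative to the array median, coloured by group. A_72_P541003 rises with A_72_P269269 (r = 0.88 within groups), while O9322 and A_72_P089326 fall with it (r = -0.57 and -0.55).

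The first pair of *RELA* spots followed the red cell genes. The mean of 8 erythroid genes correlated over the 48 pigs with A_72_P269269 at r = 0.91 and with A_72_P541003 at r = 0.88, but with O9322 at r = -0.59 and with A_72_P089326 at r = -0.64. Over the 8 single genes, r with A_72_P269269 ranged from 0.35 for *SLC4A1* to 0.96 for *EPB42*. *EPB42*, a protein of the red cell membrane skeleton, correlated with these 4 spots at r = 0.96, 0.91, -0.66 and -0.61, and *AHSP*, the chaperone of alpha-haemoglobin, at r = 0.91, 0.81, -0.58 and -0.50. Over all genes, the 3 closest to A_72_P269269 were *APOA5*, *C7ORF59* and *CNGA2* (r = 0.99, 0.99 and 0.98). Those closest to A_72_P541003 were *RFX1*, *SH2D3C* and *DDX27* (r = 0.96, 0.95 and 0.95). None of these genes is on the erythroid list. For O9322 they were *FLOT1* (0.85), *KDM3B* (0.81) and *TWF2* (0.78). For A_72_P089326 they were *C1H6ORF35* (0.70), *TMEM33* (0.69) and *KDM4A* (0.68). All these values describe the same 48 libraries, and the part of red cell RNA in the *RELA* signal was not tested.

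Many other spots had the pattern of A_72_P269269. Of all other retained spots, 187 correlated with it above 0.95 over the pigs, and 132 of these (70.6%) had a run of at least 4 C in the probe as printed 5′ to 3′, compared with 15.1% of all 37113 retained spots. At r above 0.9 there were 807 such spots, 61.6% of them with the run. The spots that followed A_72_P269269 were also brighter than most. Their median log2 level was 6.15 at r above 0.95 and 3.44 at r above 0.9, against -0.01 for all retained spots. For A_72_P541003 there were 480 spots above 0.9, of which 71.2% had the run, and for O9322 and A_72_P089326 there were 0. Only the printed strand was searched, and the run is a description of the probes. Among the spots of the 10 genes, the *NFKBIE* probe, 1 *IKBKB* probe (O3564) and the *RELB* probe also hold a run of 4 C. With the *NFKBIE* probe, 0 other retained spots correlated above 0.95. Above 0.9 there was 1, the spot of identical sequence. For O3564 and the *RELB* probe this was not counted.

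Of the 21 pairs of the 7 genes, 13 had a Pearson correlation over the pigs past an adjusted p of 0.05 in permutations of the pigs within groups, 11 of them positive and 2, both with *RELA*, negative. Correlation was common over all genes too. The 13 pairs (61.9%) had r of at least 0.34 in size, a size that 43.7% of all pairs of the 10946 genes reached in the same 48 libraries. For positive r alone the shares were 52.4% of the 21 pairs and 23.4% of all pairs. *NFKBIA* and *NFKBIE*, both inhibitors, were the closest pair, at r = 0.66 (rho = 0.59), with an adjusted p of 0.00021 for r and 0.00031 for rho. Without the 2 pigs farthest from the *NFKBIA* median r was 0.61, and with slide means removed over all 48 pigs it was 0.69. *NFKB1* correlated with *NFKBIE* at r = 0.62 (rho = 0.59), with *NFKBIA* at r = 0.59 (rho = 0.57) and with *NFKBIZ* at r = 0.54 (rho = 0.52), all with adjusted p of at most 0.0015. Without the 2 farthest pigs these were 0.52, 0.52 and 0.48, and with slide means removed 0.70, 0.64 and 0.62.

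*IKBKB* correlated with *NFKBIA* at r = 0.55 (rho = 0.48) and with *NFKBIE* at r = 0.53 (rho = 0.44), with adjusted p of at most 0.0068 by permutation. *NFKB2* correlated with *NFKBIA* at r = 0.51 (rho = 0.53, adjusted p = 0.00094 and 0.00059). With *NFKBIE* it correlated at r = 0.47 (adjusted p = 0.0035), but rho was 0.32 (adjusted p = 0.054) and r without the 2 farthest pigs was 0.32, so that this value leaned on those pigs. As the mean of 4 spots, *RELA* was negatively correlated with *NFKB1* (r = -0.50) and *NFKBIZ* (r = -0.48), both past the test, while its r with the other 4 genes, from -0.31 to -0.01, did not pass. By rank, *NFKBIE* and *IKBKB* did pass, each at rho = -0.38 (adjusted p = 0.019 by permutation). With the 2 spots O9322 and A_72_P089326 alone, a choice made after seeing the data, all 6 values were positive, from 0.40 for *NFKB2* to 0.71 for *NFKB1*, with adjusted p of at most 0.012 by the same permutations. Since the spots were picked on these pigs, this is not independent evidence.

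**Figure D4:**
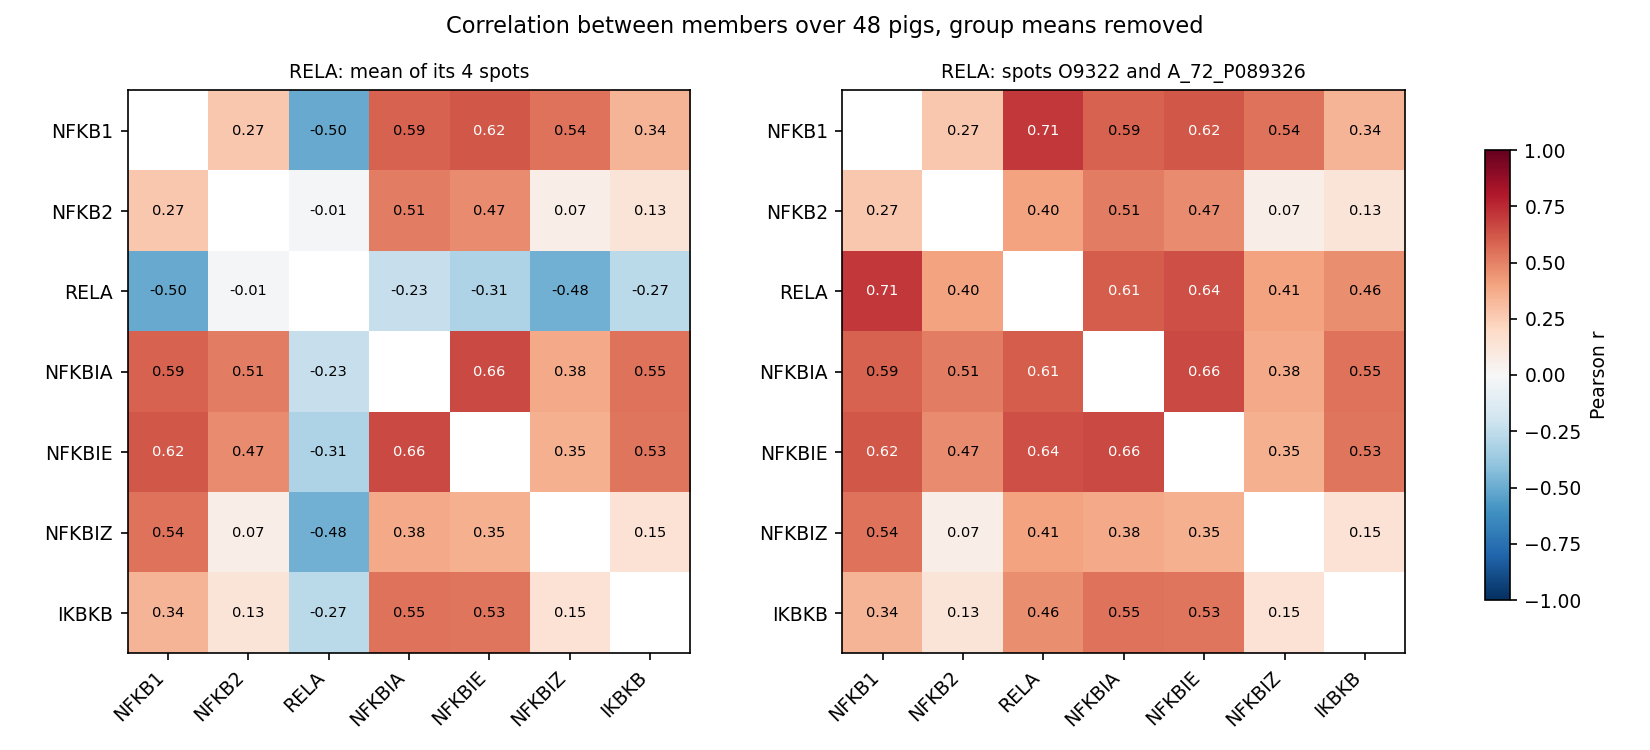
Pearson correlation between the 7 genes over 48 pigs with group means removed, with RELA as the mean of its 4 spots (left) or of spots O9322 and A_72_P089326 (right). The RELA row runs from -0.50 to -0.01 on the left and from 0.40 to 0.71 on the right, while the other pairs are the same in both panels and the highest of them is 0.66, for NFKBIA and NFKBIE.

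The 3 genes with the most similar pattern over the pigs, by Pearson correlation of gene values with group means removed, differed between the members. For *NFKBIE* they were *PPP1R3B*, *STAT5B* and *TNFRSF1A* (r = 0.81 each), of which *TNFRSF1A* encodes a TNF receptor. For *NFKBIA* they were *MCL1* (r = 0.84), an anti-apoptotic gene, *RNF170* (0.84) and *CCPG1* (0.83). For *NFKB1* they were *UBTD2* (r = 0.84), *PIAP* (0.82) and *KDM4A* (0.82), for *NFKB2* *B2MB* (0.64), *LOC100515165* (0.63) and *KLF2* (0.63), for *NFKBIZ* *LOC100514990* (0.76), *GALT* (0.74) and *ROCK1* (0.73), and for *IKBKB* *LOC100519100* (0.75), *CAPN3* (0.70) and *PKR* (0.69). For the 4-spot *RELA* value they were *RFX1*, *AKT1* and *LOC100155863* (r = 0.94 each). These values describe 48 libraries that share cell composition and slides.

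Each of 7 marker lists of blood cells was summarized as the mean log2 value of its retained genes. Of the 49 pairs of gene and list, 15 had a Pearson correlation past an adjusted p of 0.05, and 0 of these involved *NFKB2*, whose r lay between -0.12 and 0.33. At the size of the weakest passing r (0.35) stood 16 of the 49 pairs (32.7%), and over all 10946 genes and the 7 lists the share was 31.3%. All genes reached this size in 18.5% with the neutrophil, 15.3% with the monocyte and 66.5% with the erythroid list. The shares were 60.7% with the T cell, 39.4% with the NK cell, 15.1% with the B cell and 3.75% with the platelet list. *NFKBIA* correlated with the neutrophil list at r = 0.67 (rho = 0.66) and with the monocyte list at r = 0.64 (rho = 0.62), each with a permutation p of 1e-05, the smallest that the permutations can give, and an adjusted p of 9.8e-05 over the 49 pairs of gene and list. *NFKBIE* correlated with them at r = 0.54 (rho = 0.50) and r = 0.59 (rho = 0.63), with adjusted p of at most 0.0024. *IKBKB* gave r = 0.48 (rho = 0.39) and r = 0.59 (rho = 0.52), with adjusted p of at most 0.033. Without the 2 farthest pigs these 6 values of r lay between 0.36 and 0.63, and with slide means removed between 0.51 and 0.68.

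With the erythroid list 4 of the genes correlated negatively, with r = -0.66 for *NFKB1* (rho = -0.67), -0.51 for *NFKBIZ* (rho = -0.50), -0.48 for *NFKBIE* (rho = -0.49) and -0.37 for *IKBKB* (rho = -0.42), each with an adjusted p of at most 0.039 by permutation. For *NFKBIA* r was -0.35 (adjusted p = 0.055 by permutation) and for *NFKB2* it was -0.12 (adjusted p = 0.57). The 4-spot *RELA* value was at r = 0.87 (rho = 0.89), whereas the 2-spot value was at r = -0.68. *NFKB1* also correlated with the monocyte list at r = 0.48 (rho = 0.44) and with the T cell list at r = 0.47 (rho = 0.51), with adjusted p of at most 0.012. The 4-spot *RELA* value was at r = -0.61 with the T cell list and -0.35 with the NK cell list (adjusted p of at most 0.04 by permutation), and the 2-spot value at 0.57 and 0.47. A size of 0.35 was common with these lists. It was reached by 60.7% of all genes for T cells and 39.4% for NK cells, against 2 and 1 of the 7 genes. No correlation with the B cell or platelet list passed an adjusted p of 0.05 for r, while rho did for *NFKB2* and the B cell list (0.35, adjusted p = 0.039 by permutation).

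**Figure D5:**
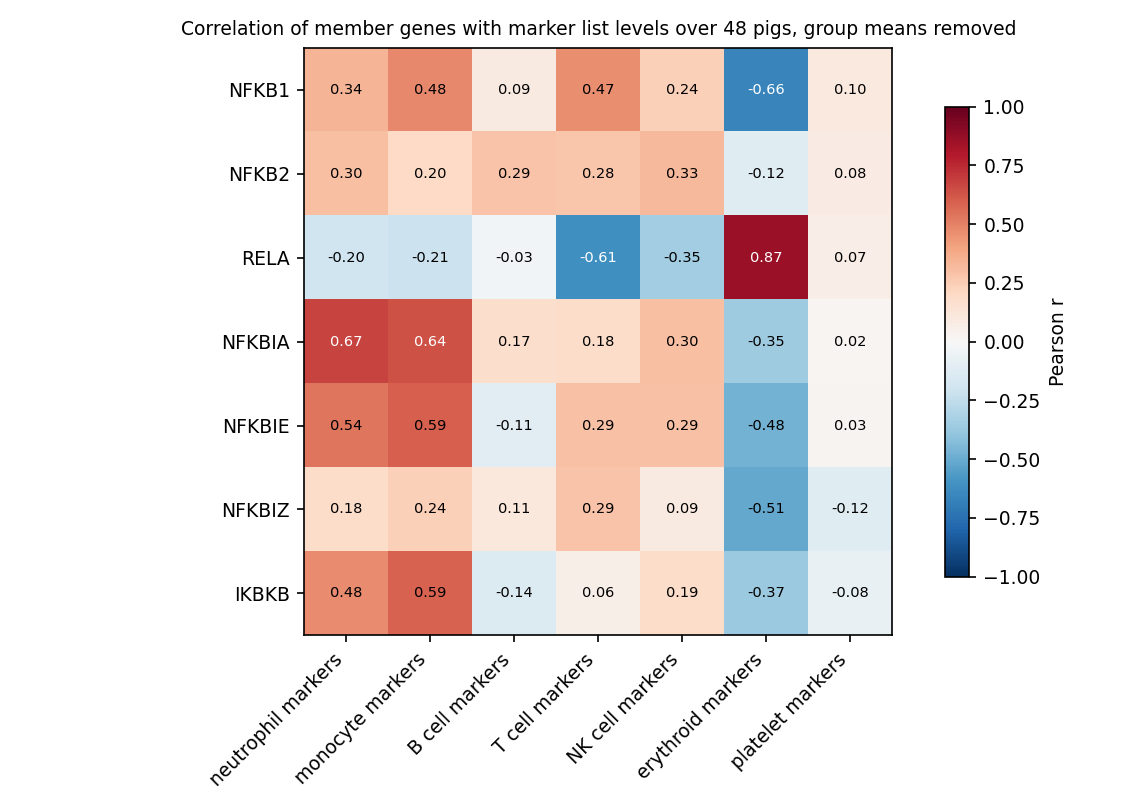
Pearson correlation of each of the 7 genes (rows) with the mean level of 7 marker lists (columns) over 48 pigs with group means removed. NFKBIA and NFKBIE are highest with the neutrophil (0.67 and 0.54) and monocyte lists (0.64 and 0.59), and RELA, as the mean of 4 spots, stands at 0.87 with the erythroid list.

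For line, 1 neutrophil marker and 1 monocyte marker passed the test, both lower in low RFI pigs, where 3.29% of all genes were called. Of all 10946 genes, 6998 had a positive line difference, with a median of 0.03. The median line difference of the 8 neutrophil genes was -0.37, with 6 of 8 below 0 and 1 past an adjusted p of 0.05 (*CXCR2*, -0.42, adjusted p = 0.039 by limma). The widest difference of the list was that of *S100A9*, at -0.46, which did not pass (adjusted p = 0.35). Per pig, the mean of this list ranged in low RFI pigs from 2.92 to 4.86 on LF and from 2.24 to 4.70 on HF, and in high RFI pigs from 2.81 to 4.28 on LF and from 3.11 to 5.24 on HF, so that the groups overlapped. The median of the 6 monocyte genes was -0.09, with 4 of 6 below 0 and 1 past the threshold (*CD14*, -0.47, adjusted p = 0.037). In low RFI pigs their mean ranged from 0.28 to 1.18 on LF and from 0.07 to 1.12 on HF, and in high RFI pigs from 0.31 to 1.36 on LF and from 0.26 to 1.46 on HF. With 1 pig left out at a time, the *CXCR2* call was kept in 29 and the *CD14* call in 32 of 48 cases. The part of these cells in the line difference of *NFKBIE* and *NFKBIA* was not tested.

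Among the other lists, with the same share of 3.29% over all genes, 2 of 6 B cell genes were lower in low RFI pigs (with a list median of -0.17 and the widest difference for *MS4A1*, at -0.36), 1 of 9 T cell genes was higher (*LCK*, 0.21, with a list median of 0.16), and 0 of 4 NK cell and 0 of 3 platelet genes passed, with the widest differences at 0.28 for *KLRK1* (adjusted p = 0.29) and -0.09 for *TUBB1* (adjusted p = 0.70). All 8 erythroid genes had a positive line difference, as did 6998 of all 10946 genes, with a median of 0.11 and the widest for *CA1*, at 0.38 (adjusted p = 0.39). *SLC4A1*, the anion exchanger of the red cell membrane, passed at 0.26 (adjusted p = 0.040 by limma), but at its brightest spot alone the difference was -0.08, and the call was kept in 25 of 48 cases with 1 pig left out. In low RFI pigs the erythroid mean ranged from 2.64 to 4.12 on LF and from 2.70 to 4.22 on HF, and in high RFI pigs from 2.31 to 3.53 on LF and from 2.89 to 4.0 on HF.

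Around the members, 70 genes of the pathway were listed by role, and 54 of them had a retained spot. For line, 2 of the 54 were higher and 3 were lower in low RFI pigs at an adjusted p under 0.05, where 3.29% of all genes were called, 49 did not pass, and 0 passed for diet or for the interaction. Among 7 retained ligand genes, *LTB*, which encodes lymphotoxin beta, was overexpressed in low RFI pigs, by 0.21 (SE 0.05, adjusted p = 0.012), and *TNFSF13B*, the B cell survival factor BAFF, was underexpressed, at a difference of -0.36 (SE 0.10, adjusted p = 0.035). *TNF* had a difference of 0.11 and *IL1B* one of -0.21, and neither passed, with adjusted p of 0.48 and 0.34. The *TNFSF13B* call was kept in 33 of the 48 cases with 1 pig left out, with adjusted p from 0.013 to 0.058.

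Of 11 retained receptor and adaptor genes, 3 passed for line, against the same 3.29% of all genes. *CD40*, a costimulatory receptor of antigen-presenting cells, was lower in low RFI pigs (3.53 ± 0.37 against 3.86 ± 0.18, SD, n = 24 each), a difference of -0.33 (SE 0.08, adjusted p = 0.012 by limma). *TLR2*, a receptor for bacterial lipoproteins, differed by -0.32 (SE 0.09, adjusted p = 0.023). *TRAF6*, the ubiquitin ligase downstream of these receptors, was measured by 1 spot and was higher in low RFI pigs. Its values were 1.54 to 2.63 in low RFI pigs compared with -0.08 to 2.35 in high RFI pigs, a fold change of 2.09 (adjusted p = 2.2e-04). The paper also measured *TRAF6* by qPCR in blood of these pigs at the same age and found no significant line difference. The array call of *TRAF6* thus rests on that spot alone. *TNFRSF1A* showed a difference of 0.02 (adjusted p = 0.96).

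In the remaining lists 0 genes passed. In the IKK list (9 of 12 genes retained) the lowest line p was that of *IKBKE*, an IKK-related kinase, with a difference of 0.19 (unadjusted p = 0.019, adjusted p = 0.22 by limma), while *CHUK* and *IKBKG*, the partners of *IKBKB* in the IKK complex, had differences of 0.00 and 0.04. Among the other IkappaB proteins (3 of 3) it was *BCL3*, a nuclear IkappaB protein, at -0.27 (unadjusted p = 0.020, adjusted p = 0.23). Among the partners and ubiquitin regulators of A20 (7 of 9) it was *RNF11*, at 0.23 (unadjusted p = 0.0094, adjusted p = 0.15). Of 17 retained target genes, out of 24 listed, 13 had a lower and 4 a higher mean in the low RFI line (median difference -0.07, where 6998 of all 10946 genes had a higher mean), and *CD83*, a surface protein of activated antigen-presenting cells, had the lowest p, at -0.35 (unadjusted p = 0.0046, adjusted p = 0.095).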

How the data were processed

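Blood RNA of 48 pigs was hybridized to 48 single-colour porcine arrays. Per the files, the deposited scanner output gives spot intensities, and the authors gave log2 values for the 37113 of 60306 non-control spots that they retained, made in R 3.0.2 per the submitters' processing notes. On 47 arrays the deposited values could be rebuilt within 0.000001 by taking log2 of each spot's median pixel intensity and subtracting the array median over the retained spots. The column of high RFI HF replicate 1 repeats 2.71 in 37090 entries, so it was rebuilt from its scanner file in the same way. No background was subtracted.

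The members and the lists of pathway and marker genes were chosen with earlier results of these data known. The value of a gene is the mean of the retained spots with the same gene name. Line, diet and their interaction were fitted with limma 3.58.1 in R 4.3.3 to all spots and to all genes, with Benjamini-Hochberg adjustment over all of them; the linear model is that of the study's methods, and analysis of variance without moderation was an alternative. Contrasts between single groups came from the same fit. Correlations between pigs were computed on deviations from the group means in Python 3.11.15, with 100000 permutations of pigs within groups. They were adjusted over 21 pairs of genes, 31 pairs of spots or 49 pairs of gene and list. The fit was tested on simulated data. Named genes are all members, each listed pathway gene past an adjusted p of 0.05 or else the one with the lowest line p of its list, the 3 genes most correlated with each member, and the marker gene with the largest line difference of a list. Genes named beyond this rule (*TNF*, *IL1B*, *TNFRSF1A*, *CHUK*, *IKBKG*, *EPB42*, *AHSP*, *CXCR2* and *SLC4A1*) were chosen after their values were seen. The 3 genes most correlated with each single *RELA* spot were also named beyond it.

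Arrays give intensities and not read counts, so that their number limits the precision. The alternatives were other signals, normalizations and spot filters, slide or replicate number as a block, the deposited column, the brightest spot of a gene and leaving out each pig. Genome positions, promoters and protein sequences were not used here.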

Additional observations from a re-analysis of the deposited data

Results flagged for a closer look

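Both spots of these genes that lie outside the table of retained values gave a signal in the scanner files. The *RELB* spot O12828 was well above background on 48 of 48 arrays, with log2 values from -2.78 to -1.59 and a line difference of 0.08 (SE 0.08, unadjusted p = 0.30 by limma over all non-control spots). A retained spot with the same probe sequence under another name had a line difference of 0.02 (SE 0.08, adjusted p = 0.97) and correlated with it over the 48 pigs at r = 0.61 (rho = 0.58, adjusted permutation p of at most 0.0001). The *NFKBIZ* spot O1369 was well above background on 31 of 48 arrays, with values from -3.25 to -2.26 and a line difference of 0.02 (SE 0.07, unadjusted p = 0.77). The reason why these spots were left out of the table was not tested.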

How the results depend on the processing

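The line call of *NFKBIE* was the only call among the members, and it was lost in some settings. The number of member genes called for line fell from 1 to 0 with normexp and quantile normalization (*NFKBIE* -0.24, adjusted p = 0.051 by limma), with the deposited column (-0.41, adjusted p = 0.30) and with spots of identical sequence counted in (-0.24, adjusted p = 0.070). The number of member spots fell from 1 to 0 with normexp and quantile normalization (adjusted p = 0.060), with all non-control spots (0.058, where 60306 spots were tested) and with the deposited column (0.30). The cause was not tested for the first. With 1 pig left out at a time, both counts for line ranged from 0 to 1, and those for diet and interaction from 0 to 0. The deposited column shifted the median line difference of all spots from 0.02 to -0.10 and called 265 spots.

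Several small differences changed sign, none of them a call except *SLC4A1*. With the deposited column the values were -0.025 for *NFKB1*, -0.14 for *IKBKB* (line), 0.053 for *NFKB1*, 0.054 for *NFKBIE* and 0.049 for *NFKBIZ* (diet), and -0.29 for *NFKB2*, 0.056 for *NFKBIA* and -0.056 for *NFKBIZ* (interaction). With the brightest spot they were -0.019 for *NFKB1* and -0.081 for *SLC4A1* (line), and for *IKBKB* -0.018 (diet) and 0.0499 (interaction). With normexp and quantile normalization they were 0.0033 for *NFKB1* (diet) and 0.016 for *IKBKB* (interaction), with all non-control spots 0.027 for *NFKBIZ* (diet), and with the processed signal centred on the median 0.0068 for *IKBKB* (interaction). *RELA* without its 2 probes with a run of 4 C gave -0.018 (line) and -0.0551 (diet). With 1 pig left out, sign changes occurred within -0.021 to 0.0102 for *NFKB2* and -0.0071 to 0.027 for *IKBKB* (line), -0.014 to 0.047 for *RELA* and -0.043 to 0.0091 for *NFKBIZ* (diet), and -0.10 to 0.011 for *NFKBIE* and -0.048 to 0.021 for *IKBKB* (interaction). Of the other single-gene values under settings that kept all pigs, 398 kept direction and side and 16 lost the call.

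The replicate block moved the calls for line from 1027 to 1496 spots and from 360 to 551 genes, and the adjusted p of *NFKBIE* was 0.037. Samples of the same number had a mean r of 0.18 over 72 pairs, 44 of them above 0.1, against 0.07 for other pairs of the same slide. Of the 48 samples, 22 correlated best with one of their own number, which 3 of the 36 samples of other groups carry. This is a hint from the data, since the labels do not say what a number means. The count of correlated pairs was 13, and 14 with slide means removed, 18 with the 75th percentile signal, 17 with 2 *RELA* spots and 17 with the means of the replicate numbers removed. The settings with identical sequences, with 2 *RELA* spots and with number means removed were chosen after seeing the data.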
